A study of Mus musculus with 3 samples.

Results

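The TGF-beta, activin and BMP pathway was examined for NR2F2 binding through 44 genes that encode its ligands, receptors, extracellular inhibitors, Smad proteins, Smad regulators and Id targets. NR2F2 (COUP-TFII) is a nuclear receptor that binds DNA as a transcription factor and is known in the fetal testis as a marker of interstitial cells. A peak was assigned to a gene when the nearest transcription start site (TSS) of curated RefSeq models (GRCm38 assembly, identical to mm10) was that of the gene, or when it lay within 50 kb of one of its TSSs. This gave 60 of the 10069 peaks (0.596%), and 33 of the 44 genes had at least 1 peak. Of the 60 peaks, 40 were nearest to the member gene and 20 were nearest to the TSS of another gene.

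Chromatin came from whole testes of CD-1 embryos, an outbred mouse stock, at E14.5 and without genetic or drug treatment. There were 2 NR2F2 ChIP libraries, each from an experiment on a pool of 30 testes, and 1 input library of sheared chromatin that was not immunoprecipitated. The testes were whole and pooled, so the cell type that carried a bound site was not resolved, and fewer cells with a bound site cannot be told apart from less binding per cell. With counts of chromatin alone, the testis label could not be set against marker gene expression.

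Ligands of this family are secreted dimers. They bring type I and type II receptor kinases together on the cell surface, and the type I receptor phosphorylates receptor-regulated Smads, which enter the nucleus with Smad4. TGF-beta and activin act mainly through Smad2 and Smad3, and BMPs through Smad1, Smad5 and Smad9. In the fetal testis, activin made by Leydig cells is known for driving Sertoli cell proliferation and cord growth.

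The values are raw read counts in each 300 bp peak. The 60 peaks had a median of 43.5 counts in ChIP replicate 1 (13 to 132), 39.5 in replicate 2 (13 to 100) and 6.50 in the input (0 to 22). Over all peaks the medians were 37.0, 31.0 and 7. Both ChIP counts were above the input at 60 of the 60 peaks and at 10059 of all 10069, so this sets the member peaks apart in no way. Peaks were called by the authors on the merged ChIP reads, so each was selected for ChIP reads that were then counted in it, and a ChIP count above the input is not separate evidence of binding. Totals of the whole libraries were not used here, and the totals at peaks (73251 for the input, 426784 and 364261 for the ChIP replicates) are not sequencing depths. A gene without a listed peak had no count, and "without a peak" is used below in that sense only.

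The sequences of 9 member peaks are shown because they carry the range of motif content found near these genes, from repeated nuclear receptor sites to none. Each is the plus strand of mm10 read from the RefSeq copy of that assembly, 5′ to 3′. Capitals mark the NR2F2 motif (AGAGGTCA or AGGGGTCA), its 6-letter core (AGGTCA or GGGTCA) and the direct repeat of AGGTCA with 1 base of any kind between its copies and at most 1 mismatch, on either strand. These words overlap one another, since each 8-letter motif holds a core. On the minus strand a core reads TGACCT or TGACCC.
Id3 +4.45 kb, chr4:136148273-136148572: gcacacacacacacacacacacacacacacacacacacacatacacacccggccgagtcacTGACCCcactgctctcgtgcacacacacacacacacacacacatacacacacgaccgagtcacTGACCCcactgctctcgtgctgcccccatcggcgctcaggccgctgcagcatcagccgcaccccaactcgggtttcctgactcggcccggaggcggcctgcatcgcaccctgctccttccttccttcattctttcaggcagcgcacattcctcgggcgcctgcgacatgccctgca
Id1 −6.70 kb, chr2:152729253-152729552: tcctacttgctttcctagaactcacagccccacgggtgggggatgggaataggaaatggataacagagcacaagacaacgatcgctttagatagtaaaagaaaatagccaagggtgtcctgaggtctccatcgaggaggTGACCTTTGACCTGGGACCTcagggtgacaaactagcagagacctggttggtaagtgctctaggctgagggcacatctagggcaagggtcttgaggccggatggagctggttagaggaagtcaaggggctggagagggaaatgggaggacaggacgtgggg
Bmp7 intron, chr2:172923243-172923542: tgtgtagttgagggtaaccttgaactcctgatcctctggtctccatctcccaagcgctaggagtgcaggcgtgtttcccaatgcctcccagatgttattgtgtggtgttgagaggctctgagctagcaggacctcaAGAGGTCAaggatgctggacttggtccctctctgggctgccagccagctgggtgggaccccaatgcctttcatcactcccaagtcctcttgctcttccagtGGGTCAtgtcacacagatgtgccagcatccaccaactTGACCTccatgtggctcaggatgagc
Smad1 intron, chr8:79379941-79380240: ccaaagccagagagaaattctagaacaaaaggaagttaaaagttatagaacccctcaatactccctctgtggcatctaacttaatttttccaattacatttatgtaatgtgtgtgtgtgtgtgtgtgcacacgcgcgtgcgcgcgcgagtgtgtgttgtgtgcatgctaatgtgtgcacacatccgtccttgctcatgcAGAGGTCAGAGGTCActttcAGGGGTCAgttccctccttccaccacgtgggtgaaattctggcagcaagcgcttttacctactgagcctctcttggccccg
Smurf1 −4.22 kb, chr5:144970055-144970354: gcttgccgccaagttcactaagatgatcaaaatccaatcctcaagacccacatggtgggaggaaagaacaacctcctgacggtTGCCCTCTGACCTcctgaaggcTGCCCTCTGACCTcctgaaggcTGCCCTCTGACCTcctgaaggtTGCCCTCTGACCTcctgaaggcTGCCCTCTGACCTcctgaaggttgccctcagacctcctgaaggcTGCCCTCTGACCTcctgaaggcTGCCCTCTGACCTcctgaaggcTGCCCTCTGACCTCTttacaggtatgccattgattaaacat
Smad5 −32.0 kb, chr13:56670716-56671015: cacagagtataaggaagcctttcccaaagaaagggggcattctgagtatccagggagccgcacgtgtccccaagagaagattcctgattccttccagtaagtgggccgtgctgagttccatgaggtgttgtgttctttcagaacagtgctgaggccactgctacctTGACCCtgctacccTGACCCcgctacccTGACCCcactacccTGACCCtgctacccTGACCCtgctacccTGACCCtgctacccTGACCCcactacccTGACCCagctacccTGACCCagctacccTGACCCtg
Skil −38.0 kb, chr3:31056714-31057013: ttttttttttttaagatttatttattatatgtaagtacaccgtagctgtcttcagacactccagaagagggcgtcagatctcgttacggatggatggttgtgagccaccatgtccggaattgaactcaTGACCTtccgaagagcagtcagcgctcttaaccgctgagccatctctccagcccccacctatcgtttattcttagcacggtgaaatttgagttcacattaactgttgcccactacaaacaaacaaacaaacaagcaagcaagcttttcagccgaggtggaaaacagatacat
Smad6 promoter, chr9:64022756-64023055: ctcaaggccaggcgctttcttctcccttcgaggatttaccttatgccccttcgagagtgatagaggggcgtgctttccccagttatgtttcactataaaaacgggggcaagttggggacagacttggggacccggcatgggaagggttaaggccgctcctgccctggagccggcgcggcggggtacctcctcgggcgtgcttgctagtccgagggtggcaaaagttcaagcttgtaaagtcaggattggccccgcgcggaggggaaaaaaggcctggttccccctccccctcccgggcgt
Bmpr2 promoter, chr1:59763052-59763351: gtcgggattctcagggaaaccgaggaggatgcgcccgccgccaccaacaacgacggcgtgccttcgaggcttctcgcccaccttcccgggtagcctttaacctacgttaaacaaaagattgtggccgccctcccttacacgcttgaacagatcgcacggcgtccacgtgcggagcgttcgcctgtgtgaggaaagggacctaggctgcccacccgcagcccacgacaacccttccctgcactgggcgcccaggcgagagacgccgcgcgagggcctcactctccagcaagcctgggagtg

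The member peaks differed widely in these letters. The Id1 peak upstream of the gene held 2 overlapping direct repeats within 10 bases of its centre. The Bmp7 intron peak held 1 complete 8-letter motif, also within 10 bases of the centre. Smad1 had 3 such motifs in its only peak, of which the first and second shared a base. The Id3 peak carried the core GGGTCA on the minus strand at positions 62 and 125, counted from 1 at the first base shown, with 63 bases from one to the next. No core was found in the peaks upstream of Smad6 and Bmpr2.

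In the sequences near Smurf1, Smad5 and Skil the core recurred at fixed spacing. The Smurf1 peak held 8 cores, most of them 22 bases apart, and 8 direct repeats. The Smad5 peak held 10 cores 14 bases apart, and a Skil peak 41.4 kb downstream of the TSS held 7, of which 6 lay 40 bases apart. At least 7 cores were found in 3 of the 60 member peaks (5.00%) and in 59 of all peaks (0.586%). In the reference genome, bases of known repeats are soft-masked: 76.0% of the Skil peak at −38.0 kb, 68.7% of the Smurf1 peak and 59.3% of the Smad1 peak were masked. These 3 were the member peaks with at least 50% masked bases (5.00%, against 1.16% of all peaks). Of the peaks with recurring cores, that of Smad5 and that of Skil at 41.4 kb had 0% masked bases. The masked Skil peak at −38.0 kb is a different one and held 1 core.

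Across the 60 peaks, the 8-letter motif was present in 9 (15.0%, against 10.5% of all peaks with a chromosome sequence), and the core in 38 (63.3%, against 58.9%). The direct repeat was present in 7 (11.7%, against 4.05%). Of the Smad binding words, GTCTAGAC was found in 1 peak (1.67%, against 0.258%), the one 26.6 kb upstream of Ski, and CAGAC in 31 (51.7%, against 52.0%). Motif content went with position. Of the 19 peaks within 1 kb of the member's TSS, 0 held the 8-letter motif and 4 held a core (21.1%), with a median GC content of 65.0%. Of the other 41 peaks, 9 held the motif (22.0%) and 34 a core (82.9%), with a median GC content of 55.3%. Among all peaks, the motif was found in 6.18% of those within 1 kb of any TSS and in 16.4% of those farther away, and the core in 48.2% and 73.7%. The 2 splits are unlike, since the member split takes only the member's own TSS. By distance to any TSS, 27 of the 60 member peaks lay within 1 kb. Base composition differs between these classes, and its part in the motif shares was not tested.

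By role, peaks close to the TSS were found among the 44 genes mostly at receptor genes and inhibitory Smads and rarely at ligand genes. For receptors this did not extend to the further pathway genes counted below, where 2 of 8 receptors had a peak within 1 kb. Of all 21000 protein-coding genes, 57.9% had a peak by the same rule, 33.2% were nearest to a peak and 28.1% had a peak within 1 kb of a TSS. For the members these were 33 of 44 (75.0%), 25 of 44 (56.8%) and 18 of 44 (40.9%). A peak within 1 kb was found at 1 of 14 genes listed as ligands, 2 of 5 extracellular inhibitors, 8 of 10 receptors, 4 of 8 Smads, 2 of 4 Smurf, Ski and Skil genes and 1 of 3 Id genes. The member genes were chosen with results of these data known, so these shares are descriptions.

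**Figure D1:**
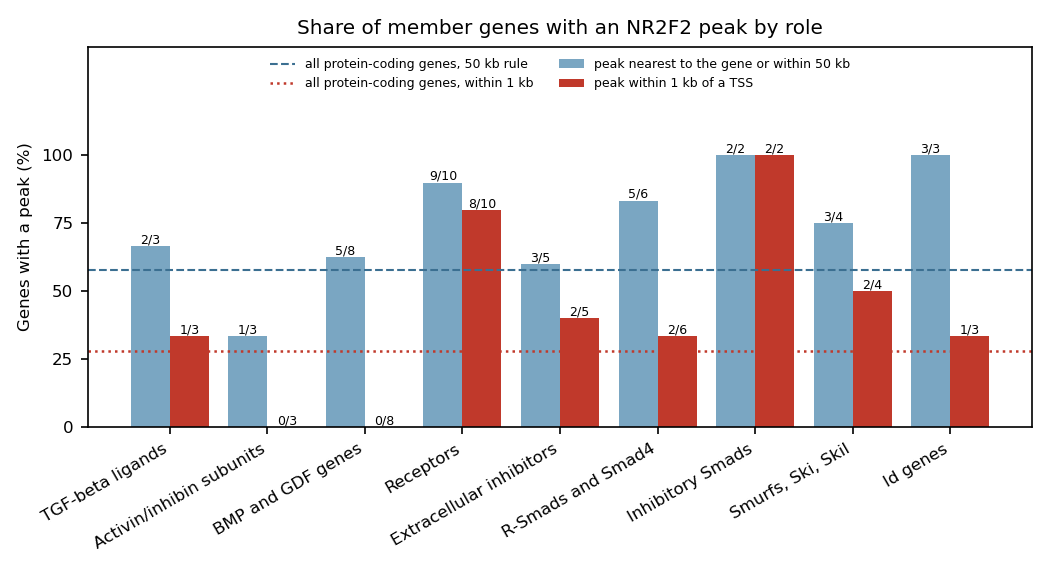
Share of member genes in each role (horizontal axis) with a peak nearest to them or within 50 kb (blue bars) and with a peak within 1 kb of a TSS (red bars), in percent of the genes of that role; the fraction over each bar gives the number of genes. Dashed and dotted lines give the shares over all protein-coding genes, 57.9% and 28.1%; receptors reached 9 of 10 and 8 of 10.

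Below, ChIP counts are given for replicate 1 and then replicate 2, numbers in parentheses after a gene symbol are NCBI gene identifiers, and each distance is from the TSS to the closer edge of the peak. Of the TGF-beta ligands, which are secreted in latent form, Tgfb2 (21808) had the only peak within 1 kb of a ligand TSS among the 44 genes. It lay 273 bp downstream of the TSS, over the 5′ UTR (chromosome 1, 186705417 to 186705716), with 57 and 44 ChIP counts over 8 in the input. Tgfb1 (21803) had 3 peaks on chromosome 7, all nearest to another gene. The one at 25707564 to 25707863, 20.6 kb from the TSS, had 78 and 69 over 13. The peak over the TSS of Bckdha, 28.0 kb upstream, had 53 and 47 over 5, and the one over the TSS of Ccdc97, 31.8 kb downstream, had 60 and 47 over 8. Tgfb3 (21809) had no peak, and the closest one lay 163 kb away.

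The activin and inhibin subunits pair to form activins (from beta subunits) or inhibins (from Inha with a beta subunit). Inhba (16323), the subunit of activin A, and Inhbb (16324) had no peak. The closest peaks lay 53.4 kb and 82.8 kb away, and the one closest to Inhba had 14 and 27 counts over 7. Inha (16322) had 3 peaks on chromosome 1, none nearest to it. The strongest, over the shared promoter of Chpf and Tmem198 at 27.5 kb, had 72 and 58 over 7, a second at 9.35 kb near Stk11ip had 51 and 35 over 9, and one in an intron of Asic4 had 41 and 41 over 10. That last peak, 48364 bp from the TSS, was just inside the 50 kb limit, and the Inhba peak, at 53393 bp, was just outside. Both activin beta subunits among the 44 genes were thus without a peak, and Inha was listed through its neighbours.

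Of the 8 BMP and GDF genes, Bmp2, Bmp6, Bmp7, Gdf6 and Gdf11 had a peak and Bmp1, Bmp4 and Bmp5 had none. Bmp7 (12162), a BMP ligand needed for kidney development, had the highest counts among ligands. Its peak in an intron 16.8 kb from the TSS (chromosome 2, 172923243 to 172923542) had 92 and 82 over 7, and one 108 kb downstream of the TSS and outside the gene (172831780 to 172832079) had 92 and 88 over 9. By summed ChIP count these ranked 344 and 295 among all peaks.

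Gdf6 (242316), a growth factor of joint and eye development, had a peak over its coding exon (chromosome 4, 9859603 to 9859902) with 55 and 45 over 4 and a weaker one downstream with 14 and 20 over 3. The intergenic peak 29.7 kb upstream of Bmp2 (12156; chromosome 2, 133522124 to 133522423) had 29 and 40 over 12. Bmp6 (12161) had 16 and 17 over 5 at a peak 39.0 kb upstream, among the weakest of the list. Gdf11 (14561) was listed through the promoter of Bloc1s1, 31.6 kb away, with 53 and 32 over 10. None of the 7 peaks of these genes lay within 1 kb of their TSS. Bmp1 (12153), which encodes a procollagen and chordin protease rather than a BMP ligand, had its closest peak at 76.3 kb, Bmp4 (12159) at 101 kb and Bmp5 (12160) at 149 kb.

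Among the 44 genes, receptors were the role with the most peaks at their own TSS. Of the type I and type II receptors and the co-receptor Tgfbr3, 9 of 10 had a peak, with 15 peaks in all. The TGF-beta receptors each had a peak near the TSS and a second one farther away. At Tgfbr3 (21814), the betaglycan gene whose product also binds inhibin, the peak 261 bp into the gene (chromosome 5, 107289069 to 107289368) had 65 and 52 over 4, and an intronic peak at 55.3 kb had 43 and 42 over 6. Tgfbr2 (21813), the type II receptor, had 42 and 42 over 5 at 280 bp into the gene (chromosome 9, 116174784 to 116175083) and 44 and 30 over 8 in an intron 75.8 kb from the TSS. Tgfbr1 (21812), the type I receptor, had 27 and 23 over 2 at 151 bp upstream (chromosome 4, 47352772 to 47353071), a ratio of the mean ChIP count to the input count of 12.5 (95% exact counting interval 3.28 to 106).

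Most activin and BMP receptors also had a peak close to the TSS. The Acvr1 (11477) peak over the TSS (chromosome 2, 58566545 to 58566844) had 43 and 28 over 3, and an intronic one 23 and 15 over 3. Acvr2a (11480), an activin type II receptor, had 13 and 13 over 4 at 405 bp upstream (chromosome 2, 48813405 to 48813704), the lowest summed ChIP count of the 60 peaks. Acvr2b (11481) had 32 and 26 over 4 at 134 bp upstream (chromosome 9, 119401745 to 119402044), and a second peak at the start of Xylb, 44.5 kb away, had 32 and 30 over 5.

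The BMP type II receptor Bmpr2 (12168) had 45 and 31 over 3 at 928 bp upstream of the TSS. Bmpr1a (12166), a BMP type I receptor, had 23 and 35 over 2 at 383 bp upstream (chromosome 14, 34502929 to 34503228) and 21 and 20 over 7 in an intron. With 2 input counts, the ratio at that upstream peak had a 95% exact counting interval of 3.84 to 123. Acvr1b (11479), the activin type I receptor, differed from these: its only peak lay in an intron 22.2 kb from its TSS (chromosome 15, 101196285 to 101196584), where the nearest TSS was that of the microRNA gene Mir6962. It had 88 and 61 counts over 22, the highest input count of the 60 peaks, and 40.7% of its bases were soft-masked. Bmpr1b (12167) had no peak within 226 kb.

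**Figure D2:**
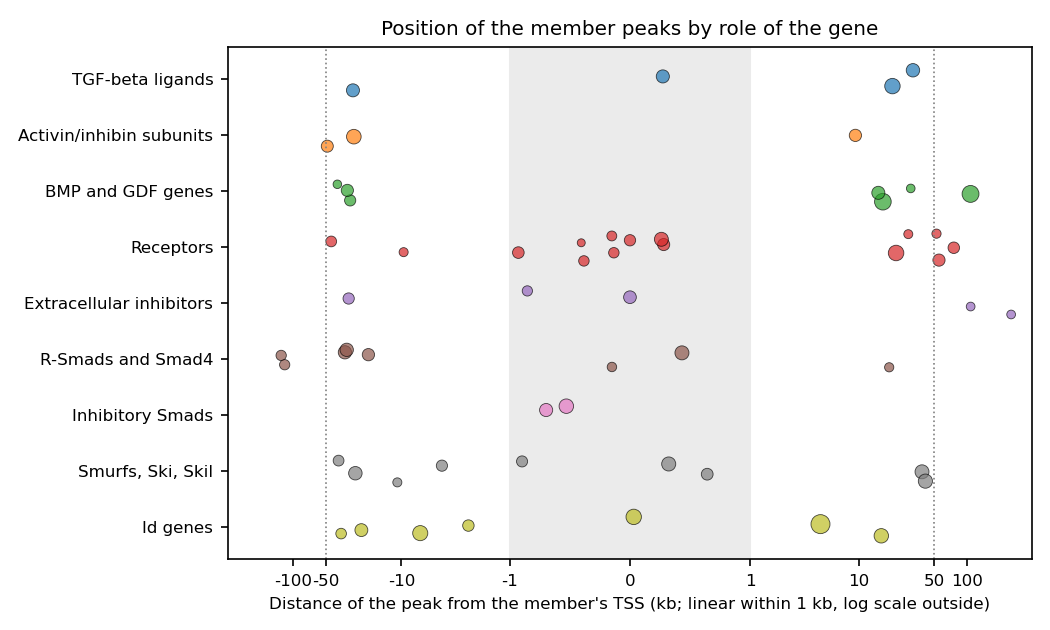
Each circle is one of the 60 member peaks, placed by its distance from the member's TSS in kb (horizontal axis, linear within 1 kb in the grey band and log-scaled outside; minus is upstream; dotted lines at 50 kb) and by role (vertical axis, with small random shifts); circle area grows with the summed ChIP count. Receptor peaks gather in the grey band, where 8 of 10 receptors have one, and BMP and GDF peaks lie outside it.

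Among the extracellular inhibitors, which bind ligands or mimic receptors, Nog (18121), a BMP antagonist, had 31 and 24 over 3 at 853 bp upstream of its TSS (chromosome 11, 89303412 to 89303711). Bambi (68010), a pseudoreceptor that lacks a kinase domain, had 3 peaks on chromosome 18. The one over its TSS (3507891 to 3508190) had 53 and 41 over 10, and 2 distal ones, 108 kb and 257 kb downstream and nearest to Bambi, had 17 and 18 over 5 and 20 and 15 over 5. Fstl3 (83554) was listed through the start of Polrmt, 30.7 kb away, with 38 and 32 over 5. Fst (14313), which encodes the activin-binding protein follistatin, and Grem1 (23892), a BMP antagonist, had no peak, with the closest ones at 64.3 kb and 90.3 kb.

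Of the receptor-regulated Smads, Smad3 (17127) had 4 peaks on chromosome 9, all nearest to it. The strongest lay in its first 1 kb (63757263 to 63757562, intronic, 432 bp from the TSS) with 65 and 53 over 7, and one 33.3 kb upstream had 65 and 39 over 10. The distal pair, 120 kb and 129 kb upstream (63877716 to 63878015 and 63886985 to 63887284), had 28 and 27 over 11 and 27 and 29 over 11. Those ChIP counts were lower than at the near pair in both replicates while the input was not lower. Smad2 (17126), its partner in TGF-beta and activin signalling, had no peak, and the closest one was 154 kb away.

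The BMP Smads had 1 peak each, none within 1 kb. Smad5 (17129) had 59 and 46 over 7 at its peak of repeated cores, Smad1 (17125) had 22 and 19 over 6 in an intron 19.2 kb from the TSS, and Smad9 (55994) had 35 and 52 over 5 at the promoter of Exosc8, 20.2 kb away. At Smad4 (17128), the common partner, a peak 150 bp upstream of the TSS (chromosome 18, 73703941 to 73704240) had 26 and 18 over 3 and was nearer to the non-coding gene 4930578L24Rik.

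Both inhibitory Smads, which BMP and TGF-beta signals are known to induce and which block receptors, had a peak within 1 kb of the TSS. At Smad6 (17130) it lay 697 bp upstream (chromosome 9, 64022756 to 64023055) with 46 and 55 counts over 2, a ratio of 25.2 (95% exact counting interval 6.81 to 211). At Smad7 (17131) it lay 529 bp upstream, in an intron of the non-coding gene Gm20544 (chromosome 18, 75366537 to 75366836), with 71 and 56 over 7. The counts were high in both replicates at both genes.

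Skil (20482), which encodes the Smad corepressor SnoN and is itself a TGF-beta target, had 6 peaks on chromosome 3, the most of any member. At least 6 peaks by this rule were found for 63 protein-coding genes (0.300%). On either side of the TSS, a peak 897 bp upstream (31093862 to 31094161) had 25 and 42 over 2 (ratio 16.8, 95% exact counting interval 4.46 to 141), and one 642 bp downstream in an intron (31095700 to 31095999) had 47 and 31 over 10. A peak 10.9 kb upstream had 13 and 26 over 5.

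The other 3 Skil peaks were nearest to another gene. The peak 38.0 kb upstream (31056714 to 31057013), nearest to Mir7008, had 27 and 36 ChIP counts and 0 in the input. Against a floor of 3 counts per library, its ChIP counts were at least 9-fold and 12-fold higher than the input, and the exact 95% lower limit of the ratio of the mean ChIP count to the input count was 8.29. Downstream, 2 peaks nearest to Cldn11, at 38.6 kb and 41.4 kb, had 72 and 45 over 9 and 73 and 48 over 16.

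Ski (20481), the related corepressor, had 50 and 69 over 17 in its coding exon 322 bp from the TSS (chromosome 4, 155221914 to 155222213) and 61 and 47 over 7 near Faap20, 26.6 kb upstream. Smurf1 (75788), a ubiquitin ligase for Smads and receptors, had 38 and 31 over 7 at 4.22 kb upstream. Smurf2 (66313) had no peak within 78.2 kb.

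The Id genes encode helix-loop-helix proteins without a basic region and are classical BMP targets; all 3 had a peak. Id3 (15903) had 3 on chromosome 4. The one 4.45 kb from the TSS (136148273 to 136148572), beyond the end of this short gene and outside any gene, had 132 and 100 counts over 5, the highest of the 60 in both replicates, and ranked 110 among all peaks by summed ChIP count. The others, 16.2 kb downstream and 23.4 kb upstream, had 64 and 62 over 8 and 54 and 43 over 14.

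Id1 (15901) had 75 and 71 over 12 at its TSS (chromosome 2, 152736282 to 152736581), and 62 and 78 over 5 at the peak 6.70 kb upstream that holds the overlapping direct repeats. The upstream peak had the lower input of the pair and similar ChIP counts. Id2 (15902) had 36 and 37 over 2 at 2.41 kb upstream (chromosome 12, 25098498 to 25098797), a ratio of 18.2 (4.87 to 154), and 35 and 25 over 2 at 36.0 kb upstream.

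**Figure D3:**
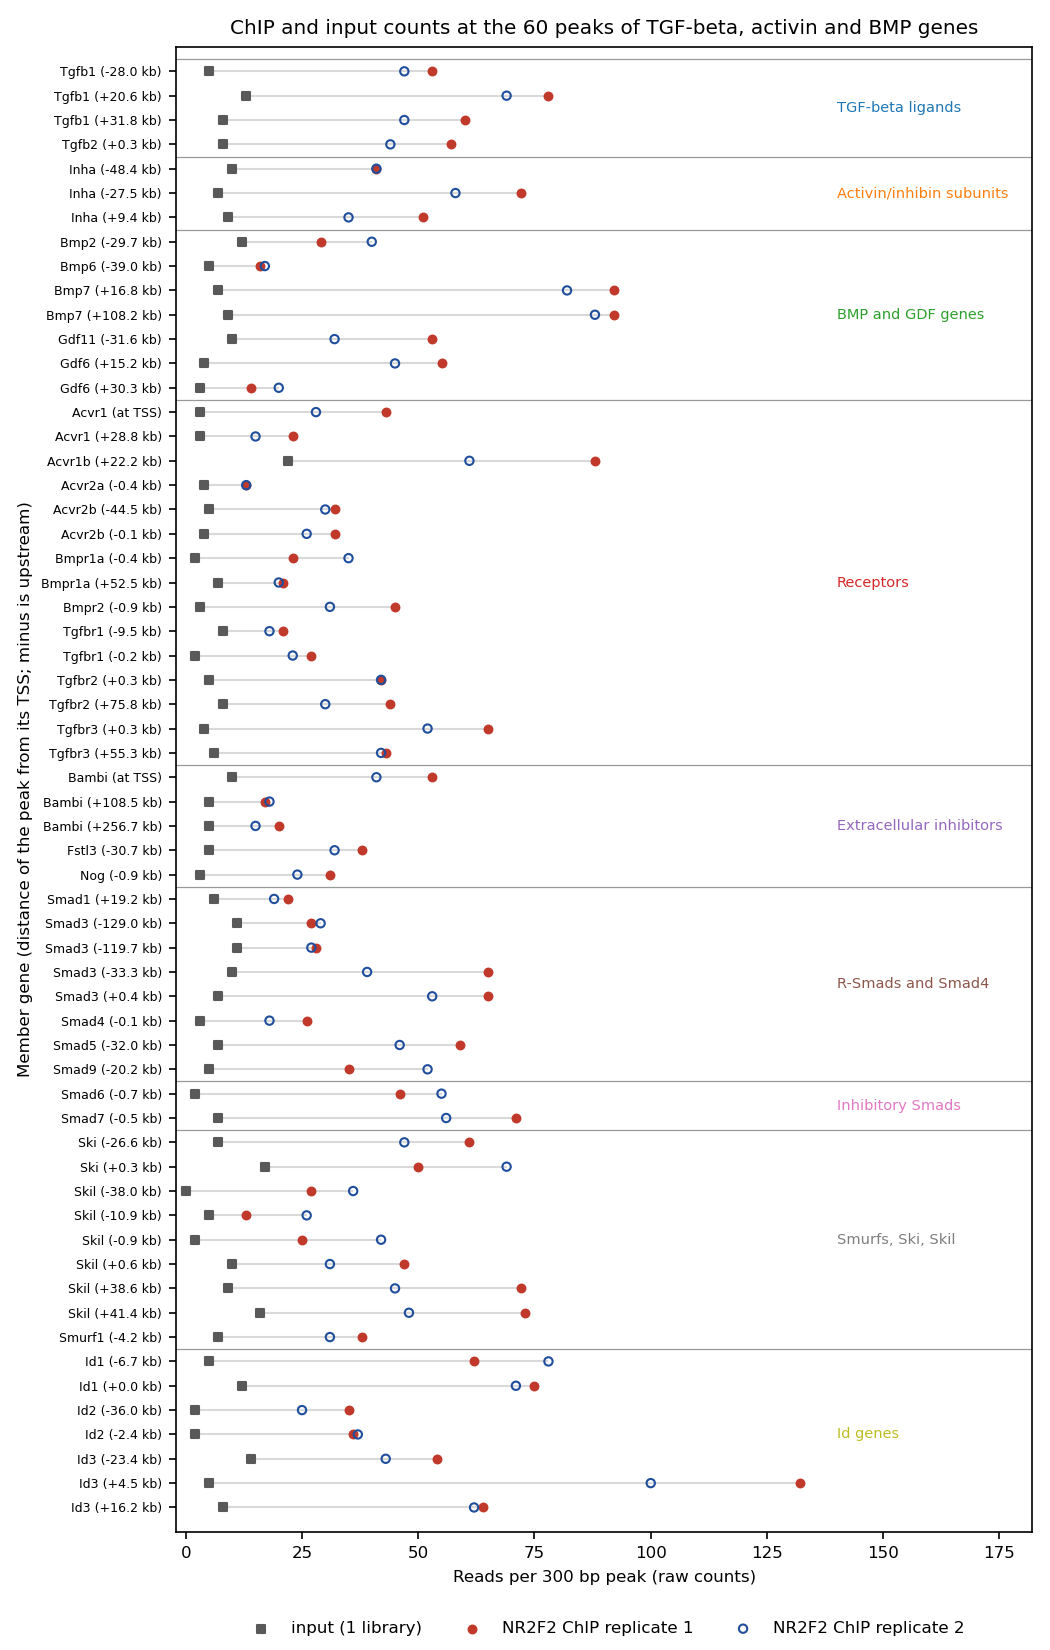
Raw read counts (horizontal axis) at each of the 60 member peaks (rows, labelled by gene and distance from its TSS, grouped by role): input as grey squares, ChIP replicate 1 as filled red circles and replicate 2 as open blue circles, joined by a grey line. The Id3 peak at +4.5 kb has the highest counts, 132 and 100, and Acvr1b the highest input, 22; both ChIP counts lie above the input in each row, as at 10059 of all 10069 peaks.

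The counts were then compared with the input. With the 3 libraries taken as equally deep, which is an assumption, edgeR's quasi-likelihood test was run on all peaks. It placed 56 of the 60 member peaks above the input at an adjusted p under 0.05 (93.3%, against 80.7% of all peaks). All peaks had been called on these same ChIP reads, so passing this test is not separate evidence of binding. The peaks that missed were those of Bmp2 (adjusted p = 0.0532), Gdf11 (0.0579) and the Skil peaks at 642 bp (0.0501) and 10.9 kb (0.108). The p-values rest on counting error and on how far the ChIP libraries spread from each other, and the lone input was taken to vary as they do. If the ChIP libraries were sequenced 2 times as deeply as the input, 0 of the 60 passed and 32 had an unadjusted p under 0.05.

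The median ratio of ChIP to input counts, with 0.5 added to each, was 6.74 in replicate 1 and 5.65 in replicate 2 for the member peaks, a mean of 6.20 ± 0.767 (SD, n = 2), and 4.75 ± 0.505 for all peaks. Within 1 kb of the member's TSS the mean was 7.93 ± 1.13, and for the other member peaks it was 5.36 ± 0.771. Over all peaks within 1 kb of any TSS the mean was 5.05 ± 0.667, and over those farther away it was 4.35 ± 0.299, with a median input count of 7 in both classes. That split takes any TSS rather than the member's own, so its classes are not quite those of the member peaks. Among the member peaks, the median input count was 4 in the near ones and 7 in the others, while the ChIP medians were 45.0 and 41.0 against 43.0 and 39.0. The ChIP medians were thus close and the input medians were apart. No test was run on these medians, which rest on the same 3 libraries.

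Each peak was also set against the typical peak, after TMM scaling of the peak counts, so that library depth drops out. At an adjusted p under 0.05, 1.53% of all peaks were above the typical peak and 0.0497% were below. Among the 60 member peaks, 2 lay above (3.33%) and 0 below. An unadjusted p under 0.05 was found at 10 of the 60, each with a ratio above the typical peak. Over all peaks it was found at 1051 of 10069 (10.4%), with ratios in either direction counted. The called peaks were Id3 at 4.45 kb, with a log2 ratio relative to the typical peak of 2.21 ± 0.51 (SE; edgeR adjusted p = 0.00221), and Skil at −38.0 kb (edgeR adjusted p = 0.0423), whose fitted ratio is not given because with an input of 0 it depends on the prior count. The Id3 call was lost with DESeq2 size factors in edgeR (adjusted p = 0.0923) and with DESeq2 itself (0.130), and the Skil call with those size factors (0.290) and without TMM scaling (0.0770). Of their bases, 42.7% at Id3 and 76.0% at Skil were soft-masked, and the part of repeats in these calls was not tested.

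The 5 highest fitted ratios were those of the called peaks and of 3 others, upstream of Smad6 (log2 2.33 ± 0.80, edgeR adjusted p = 0.127), Id2 at 2.41 kb (1.86 ± 0.84, adjusted p = 0.382) and Skil at 897 bp (1.74 ± 0.86, adjusted p = 0.457). All 3 had 2 input counts, and none passed. Lower adjusted p-values than at Id2 and Skil were found at the Bmp7 intron (edgeR adjusted p = 0.212), Id1 at 6.70 kb upstream (0.235) and Tgfbr3 at 261 bp (0.297), which did not pass either. The lowest log2 ratios were −1.03 ± 0.64 for Tgfbr1 at 9.54 kb upstream (21 and 18 over 8), −0.99 ± 0.54 and −0.96 ± 0.54 for the distal Smad3 pair, −0.78 ± 0.50 for Bmp2 and −0.76 ± 0.66 for the Bmpr1a intron. Their edgeR adjusted p-values were 0.638, 0.537, 0.558, 0.652 and 0.803. The median over the member peaks was 0.40, against 0.02 over all peaks. By role, the medians were 1.59 for the 2 inhibitory Smad peaks, 1.49 for the Id genes, 0.51 for receptors, 0.38 for TGF-beta ligands, 0.30 for the other Smads, 0.19 for BMP and GDF genes, −0.02 for the Smurf, Ski and Skil genes, −0.06 for Inha and −0.09 for the extracellular inhibitors. Differences between these medians were not tested.

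**Figure D4:**
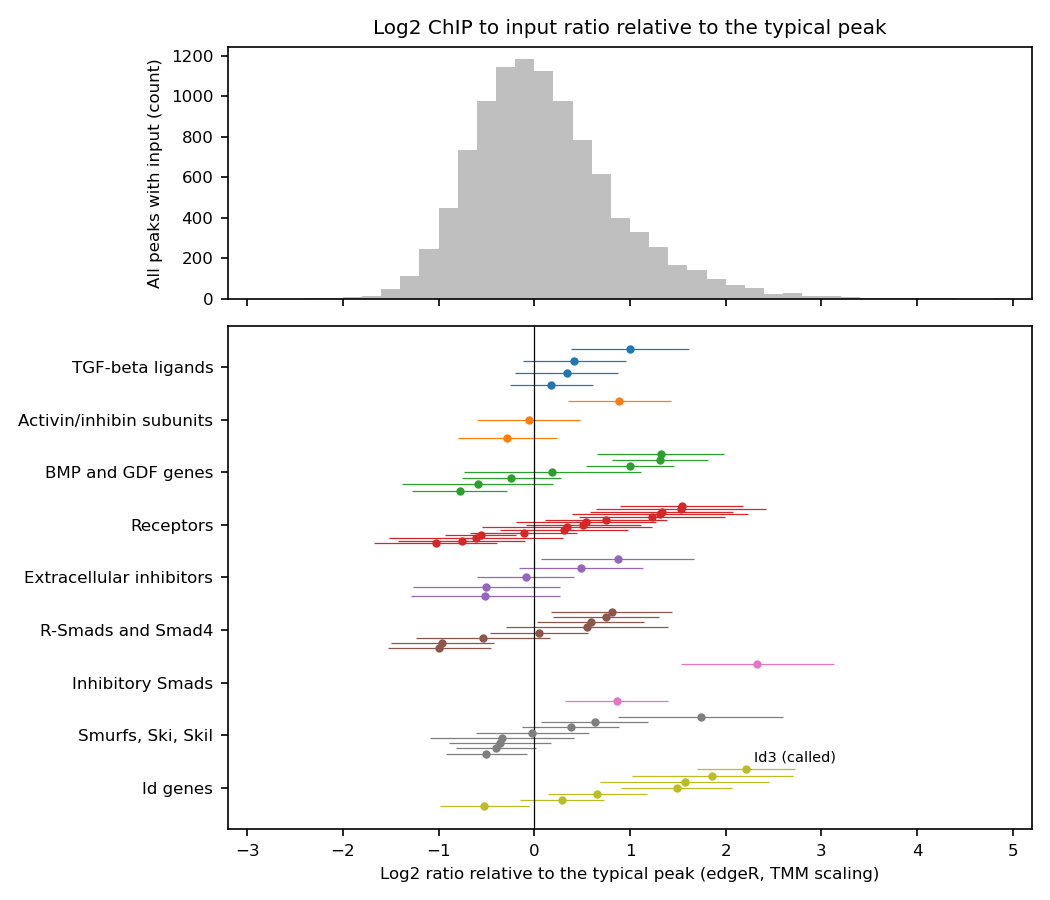
Upper panel: number of peaks (vertical axis) by log2 ChIP to input ratio relative to the typical peak (horizontal axis), for all peaks with an input count above 0. Lower panel: the same ratio for 59 member peaks by role, with bars of 1 standard error; the Skil peak with an input of 0 is not drawn. The member peaks drawn lie between −1.03 (Tgfbr1) and 2.33 (Smad6), inside the range of all peaks, and Id3 is the called one at 2.21.

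The ChIP replicates were compared at each peak by an exact two-sided binomial test, and 0 of the 60 member peaks had an adjusted p under 0.05, against 0.0993% of all peaks. Without adjustment, 6 of the 60 had a p under 0.05, against 8.83% of all peaks. The smallest belonged to the Skil peak 897 bp upstream, with 25 and 42 counts (exact binomial p = 0.00685, adjusted p = 0.329). Replicate 1 was the higher one at 43 of the 60 peaks and at 6975 of all 10069, and it held 54.0% of all ChIP counts at peaks.

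By the study's classes, which refer to the gene with the nearest TSS, 26.7% of the member peaks were TSS proximal (overlapping the TSS or up to 1 kb upstream), 8.33% upstream (to 10 kb), 33.3% in the gene body and 31.7% intergenic. The shares over all peaks were 36.0%, 4.34%, 33.9% and 25.8%. With a peak on either side of a TSS counted, 45.0% were within 1 kb of the nearest TSS, against 58.0% of all peaks. The midpoint of 15 member peaks lay in an intron, of 6 in a 5′ UTR, of 4 in a coding exon and of 34 outside any gene. Of all 10064 peaks with a chromosome annotation, these numbers were 3348, 1460, 1036 and 3962, so that 56.7% of the member peaks and 39.4% of all peaks lay outside any gene.

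A further 70 genes of the pathway were counted in the same way, among them Nodal, Amh and its receptor, the latent TGF-beta binding proteins and the BMP antagonists outside the 44. Of these, 51 had a peak (72.9%), 24 were nearest to one and 14 had one within 1 kb of a TSS (20%). Over all protein-coding genes these shares were 57.9%, 33.2% and 28.1%. The further genes had 90 peaks in all, none shared with the 44 genes. At equal depth, 71 of the 90 lay above the input, 1 lay above the typical peak and 0 below, and the median log2 ratio relative to the typical peak was 0.02. Over all peaks, 80.7% lay above the input, 1.53% above the typical peak and 0.0497% below, with the same median of 0.02. The called peak lay 388 bp from the TSS of Ccn2, a matricellular TGF-beta target, and nearer still to Gm15270 (chromosome 10, 24595830 to 24596129), with 136 and 127 counts over 8 (log2 1.72 ± 0.43 SE, edgeR adjusted p = 0.00711). The peak over the TSS of Tab1, which activates the kinase TAK1, had 117 and 100 over 9, and a second Tab1 peak, over the TSS of Rpl3, had 74 and 82 over 13. Ltbp4, which encodes a latent TGF-beta binding protein, had 100 and 70 over 6 at 787 bp from its TSS. The stronger and more distant of 2 peaks listed for Acvrl1, a type I receptor of endothelial cells, had 84 and 80 over 10 and was nearest to Fignl2. These 5 were the strongest of the 90 by summed ChIP count.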

How the data were processed

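NR2F2 ChIP-seq was performed on E14.5 CD-1 whole testes (2 ChIP libraries and 1 input, single-end 75-base reads). The authors trimmed reads with Trim Galore 0.6.7, mapped them to mm10 with Bowtie2 in local mode, filtered on mapping quality, removed duplicates with Picard 1.110, merged the ChIP replicates to call peaks with HOMER 4.11.1, resized peaks to 300 bp and dropped blacklisted regions (tools as in the submitters' processing notes and the study's methods). Each library was deposited by the authors as raw read counts at these peaks; the sources used here do not give the rule by which reads were assigned. A mapping-quality filter lowers counts in repeats, and duplicate removal caps high counts.

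Peaks were annotated with 45756 curated RefSeq transcripts of 26180 genes, and 5 peaks on unplaced contigs were given no gene. Tests were edgeR 4.0.16 quasi-likelihood fits (R 4.3.3) on all 10069 peaks with Benjamini-Hochberg adjustment, and DESeq2 1.42.0 was an alternative. Both edgeR fits, but not DESeq2, were tested on simulated data: the fit relative to the typical peak found most raised peaks but only a minority of lowered ones, so a count of 0 below the typical peak has little power behind it. Intervals of ratios are 95% exact binomial and, like the floor of 3 counts, cover counting error only. The low input counts (median 7 at a peak) set the precision of the ratios. The member genes, the further pathway genes and the motifs were chosen with earlier results of these data known. All members were named, each with its strongest peak (all peaks for those with at least 3), with log2 ratios for called peaks and for the 5 highest and 5 lowest, except at an input of 0.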

Additional observations from a re-analysis of the deposited data

How the results depend on the processing

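The number of members with a peak (33) stayed between 22 and 39 under other distance rules and gene models, and was 11 when peaks needed at least 10 input counts; the number with a peak within 1 kb (18) was 4 under that filter, since only 14 of the 60 peaks passed it. In place of 56 peaks above the input, 0 were called for ChIP libraries 2 times as deep as the input, 14 of 14 with at least 10 input counts, 47 with DESeq2, and 60 with robust fitting, with shallower ChIP libraries or with replicates scaled to each other. The count above the typical peak (2) was 0 with DESeq2 size factors in edgeR, 1 without TMM scaling, 0 with DESeq2 (which gave an adjusted p for 8 of the 60) and 0 of 14 with at least 10 input counts, and 0 peaks were below it under each of these. In the main settings, 57.9% of protein-coding genes had a peak, 80.7% of all peaks lay above the input and 1.53% above the typical peak. The matching shares under the other settings are not given, so these counts do not set the members apart. The median ratio of 6.20 fell to 3.98 with 5 added to each count and to 3.69 with at least 10 input counts, and leaving out each ChIP replicate gave 5.65 to 6.74. The motif share of 15.0% became 63.3% with the 6-letter core, and the TSS proximal share of 26.7% became 45.0% with both sides of a TSS counted. Among the 10 peaks with the highest or lowest ratios relative to the typical peak, 9 were no longer above the input with deeper ChIP libraries and 4 with DESeq2, and no direction was reversed in the fits run for them, in which DESeq2 gave an adjusted p relative to the typical peak for 1 of the 10. No paired analysis was possible because the single input carries no replicate number.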

Other observations

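Among the further pathway genes, peaks within 1 kb of a TSS were counted by role, beside the 28.1% of all protein-coding genes that had one. The matrix genes that store or activate latent TGF-beta had such a peak in 3 of 11, the Smad cofactors and adaptors in 3 of 6, the added ubiquitin ligases and corepressors in 3 of 8, the added receptors in 2 of 8 and the TGF-beta induced targets in 1 of 4. Of the added BMP and GDF ligands 1 of 14 had one, of the extracellular inhibitors 1 of 12, of the TGF-beta ligands 0 of 4, of the activin and inhibin subunits 0 of 2 and of the Id genes 0 of 1. The share among added receptors was thus not above that of all protein-coding genes. Fbn1, which encodes the microfibril protein fibrillin-1 and is named here after its values were seen, had 4 peaks, all nearest to it, of which the one 74 bp from its TSS had 70 and 67 ChIP counts over 10 in the input. Amh, the testis hormone that regresses the Müllerian duct, named for the same reason, was listed through a peak near Oaz1, 21499 bp away, with 39 and 30 counts over 3.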
